A study of Mus musculus with 6 samples.

Results

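The barrier lipid synthesis genes are 9 genes that make, pack and oxidize the long ceramides of stratified epithelia. They were chosen by name as *Alox12b*, *Aloxe3*, *Cers3*, *Elovl4*, *Abca12*, *Sptlc3*, *Ugcg*, *Smpd1* and *Degs2*, and they are 9 of 34298 gene names on the arrays. Agilent single-color mouse arrays measured them with 13 of 55681 distinct probes. Organoids were grown from the epithelium of the esophagus and of the stomach corpus of mice 1, 2 and 4, giving 3 arrays for each tissue at passage 0. All were harvested on day 8 of culture except the stomach organoids of mouse 4, taken on day 7. Strain, sex and age of these mice are not in the labels. The methods of the study name wild-type C57BL/6 females and the lines Krt5-CreERT2, Krt8-CreERT2 and Axin2-CreERT2, each with Rosa26-tdTomato, and give an age in weeks for its mice, without saying which gave these arrays. Every sample is labelled as a control. The media shared B27, N2, EGF, noggin, FGF-10, N-acetyl-L-cysteine, nicotinamide, a TGF-β receptor kinase inhibitor and a ROCK inhibitor. Stomach medium also held WNT3A and R-spondin1 conditioned medium and gastrin, and esophagus medium held forskolin, so tissue and medium cannot be told apart.

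In keratinizing epithelium, suprabasal cells extend fatty acids to very long chains, hydroxylate the far end, join them to a sphingoid base as ceramide and esterify the hydroxyl group with linoleate. The product is glucosylated, loaded into lamellar granules and secreted, and outside the cell it is cut back to ceramide. Lipoxygenases oxidize its linoleate, a step needed to bind the ceramide to the cornified envelope. Inherited loss of many of these enzymes causes ichthyosis, a scaling disorder in which skin loses water. The mouse esophagus is lined by a keratinized squamous epithelium, whereas the corpus is lined by columnar glands.

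Values are the deposited log2 values, which the study corrected for background and quantile normalized, so that 1 unit is a 2-fold difference in spot brightness. A probe was called when the limma p-value, adjusted by the Benjamini-Hochberg method over all 55681 probes, was under 0.05. A gene was represented by its brightest probe. The scanner software marked 45.5% to 51.1% of non-control spots as well above background, and none as saturated. The brightest probes of the basal squamous markers *Krt5*, *Col17a1* and *Lgals7* were bright on the esophagus arrays, and those of *Krt8*, *Tff1* and *Pgc* on the stomach arrays, as the labels state. Summed brightness of 10 columnar markers was 4698 to 10587 on esophagus arrays and 611615 to 635825 on stomach arrays. Of 8 fibroblast markers, none was well above background on every array of a tissue. Of 13 markers of differentiated squamous cells, 11 were so on every esophagus array, and *Krt1* was so on none.

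The esophagus array of mouse 4 stood apart from those of mice 1 and 2 in these genes. It was also the only array on its slide, so slide, scan and animal cannot be told apart for it. Of the 9 genes, 8 were more than 2-fold lower on this array than on both other esophagus arrays. The same held for 649 of the 17119 genes well above background on the arrays of mice 1 and 2, or 3.79%, and 1.06% were more than 2-fold higher. The main comparisons between tissues are therefore given with all 6 arrays and without this one. This array was picked out by its values in these same genes. Limma p-values without it are thus a description and add no support to those on all 6 arrays.

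**Figure D1:**
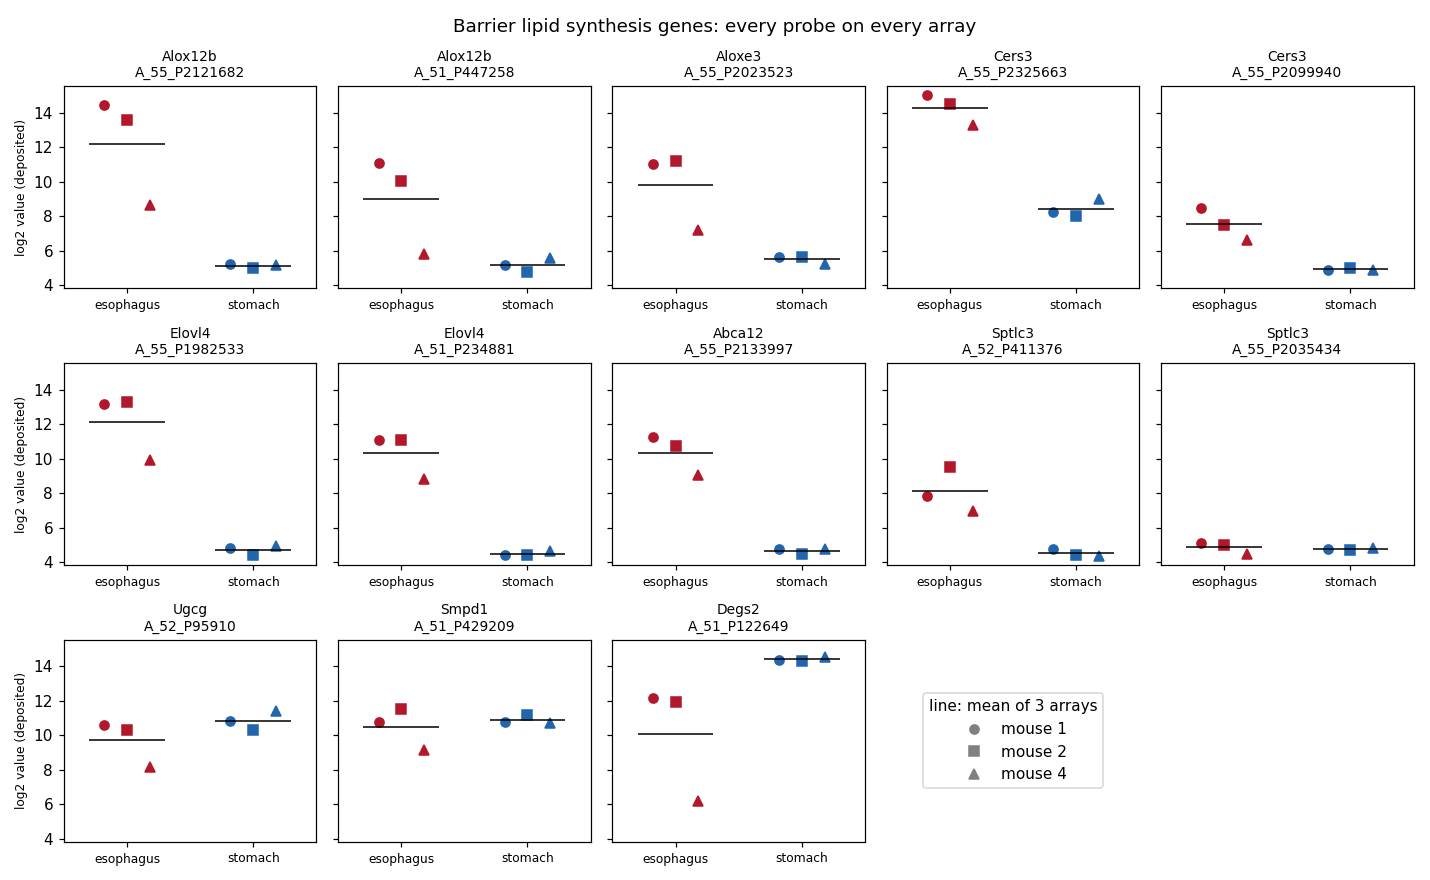
Deposited log2 value (vertical axis) of each of the 13 probes on each array, with esophagus in red, stomach in blue, a symbol for each mouse and a line at the mean of 3 arrays. In the esophagus, mouse 4 (triangles) is the lowest point in every panel, such as 6.22 for *Degs2* where mice 1 and 2 are at 12.19 and 11.92.

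The 2 lipoxygenases, *Alox12b* and *Aloxe3*, were higher in esophageal organoids. *Alox12b* encodes the enzyme that first oxidizes linoleate in the ceramide, and *Aloxe3* encodes the isomerase that acts on its product. The *Aloxe3* probe lies 16.9 kb from the nearer *Alox12b* probe on chromosome 11 of mm9, the genome build of the array files. *Alox12b* (NM_009659) has 2 probes, shown because they differ in brightness and in their test. The brighter one (A_55_P2121682) lies at chr11:68983186-68983245 on the plus strand. The dimmer one (A_51_P447258) lies at chr11:68979536-68979770 on the same strand, where its 60 bases span 235 genomic bases, so its match is interrupted. Which exons or untranslated parts the probes match was not annotated in the files used here.
Alox12b A_55_P2121682: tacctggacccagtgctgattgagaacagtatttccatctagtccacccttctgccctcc
Alox12b A_51_P447258: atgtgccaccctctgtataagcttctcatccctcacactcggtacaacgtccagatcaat

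The brighter *Alox12b* probe had log2 values of 14.43, 13.58 and 8.65 in the esophagus of mice 1, 2 and 4 and 5.26, 4.99 and 5.17 in the stomach. All esophagus arrays lay above all stomach arrays, while mouse 4 was 41.0-fold below the mean of mice 1 and 2. The tissue means were 12.22 ± 3.12 and 5.14 ± 0.14 (SD, n = 3 each). No stomach array was well above background, and the esophagus exceeded the stomach by at least 135-fold (limma adjusted p = 0.0107), and by at least 466-fold without the esophagus array of mouse 4 (limma adjusted p = 2.35e-06). Without esophagus replicate 1 or 2 the limit was lower, at least 62.7-fold and at least 84.3-fold. Such a bound sets the mean of the bright tissue against a value for each dim array. That value is the lowest signal well above background on the array, or the probe's own value where that is higher. The bound takes no account of the spread between arrays, here and in the comparisons that follow. For this probe its own value was the higher on each stomach array, so the bound equals the fitted fold. The fitted log2 difference was 7.08, with a 95% interval of 4.04 to 10.12 (limma). The call was lost without stomach replicate 2 (limma adjusted p = 0.0536), with a background offset of 50 (limma adjusted p = 0.0571) and with trended, robust variances (limma adjusted p = 0.0837). In bulk samples, fewer cells of a type and less RNA in each cell cannot be told apart, here and in every comparison that follows.

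On the dimmer *Alox12b* probe the arrays read 11.10, 10.06 and 5.82 in the esophagus and 5.17, 4.79 and 5.56 in the stomach. Of the 3 stomach arrays, 1 was well above background for this probe. The tissues did not overlap here either, although mouse 4 lay only just above the highest stomach array. Its log2 difference of 3.82 (standard error 1.18) did not pass (limma adjusted p = 0.0846). Without the esophagus array of mouse 4 it was 5.41 and passed (limma adjusted p = 9.23e-05), and without esophagus replicates 1 and 2 it was 2.77 and 3.29 (limma adjusted p = 0.171 and 0.228). Both probes thus placed the gene on the same side, with a different call on 6 arrays.

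*Aloxe3* (NM_011786, A_55_P2023523, chr11:68962557-68962616 of mm9, plus strand) read 11.01, 11.21 and 7.18 in the esophagus and 5.66, 5.62 and 5.21 in the stomach, where 1 of 3 arrays was well above background. Again the tissues did not overlap and mouse 4 was the low esophagus array, 15.3-fold below the mean of the other 2. The log2 difference was 4.31 (standard error 0.96, limma adjusted p = 0.0248), and 3.70 and 3.60 without esophagus replicates 1 and 2. Without the esophagus array of mouse 4 it was 5.62 (standard error 0.20, limma adjusted p = 5.3e-06). Leaving out any 1 of the other 5 arrays ended the call, with limma adjusted p of 0.0622 and 0.0783 without esophagus replicates 1 and 2, and 0.0896, 0.0914 and 0.0612 without stomach replicates 1, 2 and 4. The background offset of 50 and the trended, robust variances ended it too (limma adjusted p = 0.0847 and 0.1).

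*Elovl4*, *Cers3* and *Sptlc3*, which act on the fatty acid chain, the amide bond and the sphingoid base, were also higher in the esophagus, and each kept its call whichever array was left out. *Elovl4* (NM_148941) encodes the elongase that extends fatty acids to the lengths found in barrier ceramides. Its brighter probe (A_55_P1982533, chr9:83673253-83673312 of mm9, minus strand) read 13.19, 13.26 and 9.89 in the esophagus and 4.80, 4.43 and 4.95 in the stomach. Mice 1 and 2 differed by 0.07 there, and mouse 4 lay 10.1-fold below their mean. The gene was higher in the esophagus by at least 148-fold (means 12.12 ± 1.93 and 4.73 ± 0.27, SD, n = 3 each, limma adjusted p = 0.0008), and at least 321-fold without the esophagus array of mouse 4 (limma adjusted p = 9.48e-07). Without esophagus replicate 1 or 2 the limit was at least 102-fold and at least 99.6-fold. A dimmer probe of the same transcript (A_51_P234881, chr9:83672645-83672704, minus strand) was at least 48.4-fold higher (limma adjusted p = 0.000374), and at least 81.8-fold without the esophagus array of mouse 4 (limma adjusted p = 1.16e-06). Neither probe was well above background on a stomach array. The limit of the dimmer probe was at least 37.0-fold without esophagus replicate 1 and at least 37.5-fold without esophagus replicate 2.

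*Cers3* encodes the ceramide synthase that joins very long fatty acids to the base. Of the 6 genes called higher in the esophagus, only *Cers3* was well above background on every stomach array. Its 2 probes (NM_001164201), printed because only 1 of them was above background in the stomach, lie at chr7:73968501-73968560 and chr7:73966654-73966713 of mm9 on the plus strand, and bases 1 to 30 of the brighter one are given.
Cers3 A_55_P2325663: aagggttcagtaccatgcgaggtgactttg
Cers3 A_55_P2099940: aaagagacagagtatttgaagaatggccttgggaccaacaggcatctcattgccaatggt

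The brighter probe read 15.01, 14.52 and 13.28 in the esophagus and 8.27, 8.01 and 8.99 in the stomach. Mouse 4 was the low esophagus array and also the high stomach array, and the tissues stayed apart by a wide gap. The log2 difference was 5.85 (standard error 0.45, limma adjusted p = 9.97e-05), a 57.6-fold difference, and 6.34 without the esophagus array of mouse 4 (limma adjusted p = 2.34e-05). On the other probe the values were 8.47, 7.51 and 6.65 in the esophagus and 4.91, 4.99 and 4.87 in the stomach, none of the latter well above background. This probe gave at least 6.15-fold (limma adjusted p = 0.00441), at least 8.40-fold without the esophagus array of mouse 4 (limma adjusted p = 0.000521), and both probes passed. Here too the bound equals the fitted fold. The fitted log2 difference of this probe was 2.62, with a 95% interval of 1.68 to 3.56 (limma). The limit of the dimmer probe was at least 4.46-fold without esophagus replicate 1 and at least 6.21-fold without esophagus replicate 2.

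*Sptlc3* encodes a subunit of serine palmitoyltransferase, the enzyme that starts sphingoid base synthesis. Its probes gave different readings and are shown for that reason, the later one by bases 1 to 30. The probe at chr2:139451591-139451650 of mm9 belongs to NM_175467. The other, at chr2:139463351-139463410, is named by the transcript ENSMUST00000047370.2, and both are on the plus strand.
Sptlc3 A_52_P411376: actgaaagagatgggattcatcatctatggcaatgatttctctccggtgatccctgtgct
Sptlc3 A_55_P2035434: tgaattctgagcacatagtgaaactcaaat

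The former read 7.85, 9.52 and 6.99 in the esophagus and 4.78, 4.40 and 4.36 in the stomach. Mouse 2 was the high esophagus array here, and mouse 1 minus mouse 2 was -1.67. The gene was at least 9.85-fold higher (means 8.12 ± 1.29 and 4.52 ± 0.23, SD, n = 3 each, limma adjusted p = 0.00466), and at least 14.6-fold without the esophagus array of mouse 4 (limma adjusted p = 0.00116). Without esophagus replicate 2, the high array, the limit was at least 6.06-fold (limma adjusted p = 0.0014). The latter probe was not well above background on any of the 6 arrays, with values of 4.49 to 5.11, and did not pass (limma adjusted p = 0.828).

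*Degs2* went the other way from the genes above, and its call depended on mouse 4. It encodes an enzyme that desaturates the sphingoid base or adds a hydroxyl group to it, as in the phytoceramides of skin and gut. Its probe (NM_027299, A_51_P122649, chr12:109928501-109928560 of mm9, minus strand) was printed on 10 spots of each array, and its bases 1 to 30 are shown because these spots give a technical spread.
Degs2 A_51_P122649: gatacagagtaaccaggcttacctgaactt

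Averaged over spots, *Degs2* read 12.19, 11.92 and 6.22 in the esophagus and 14.37, 14.31 and 14.57 in the stomach. All stomach arrays lay above all esophagus arrays. Within an array the 10 spots had an SD of 0.10 to 0.17, and those of the esophagus array of mouse 4 ran from 5.95 to 6.43. This spread is technical. Mouse 4 was 57.1-fold below the mean of mice 1 and 2. With all arrays the log2 difference was -4.31 (standard error 1.41) and did not pass (limma adjusted p = 0.101). Without the esophagus array of mouse 4 it was smaller, -2.36 (standard error 0.18), and passed (limma adjusted p = 0.000196). With any other array left out it did not pass (limma adjusted p = 0.0555 to 0.246), and the difference was larger without esophagus replicates 1 and 2, at -5.35 and -5.22.

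*Abca12*, which encodes the transporter that loads glucosylceramide into lamellar granules, was higher in the esophagus. Its 1 probe (NM_175210, chr1:71289874-71289933 of mm9, minus strand) is printed as the member measured nearest to the step of secretion.
Abca12 A_55_P2133997: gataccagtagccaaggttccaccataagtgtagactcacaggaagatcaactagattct

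*Abca12* read 11.26, 10.72 and 9.07 in the esophagus and 4.75, 4.48 and 4.76 in the stomach, where no array was well above background. The tissues did not overlap, and mouse 4 lay 3.77-fold below the mean of the other esophagus arrays. The esophagus exceeded the stomach by at least 46.2-fold (means 10.35 ± 1.14 and 4.66 ± 0.16, SD, n = 3 each, limma adjusted p = 0.000213), and at least 72.0-fold without the esophagus array of mouse 4 (limma adjusted p = 4.06e-06). Its adjusted p stayed at 0.00274 or below with each array left out (limma). The limit was lower without esophagus replicate 1 or 2, at least 33.7-fold and at least 40.7-fold.

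*Ugcg* and *Smpd1*, whose products act in most cell types, did not pass in either direction. *Ugcg* (NM_011673, A_52_P95910, chr4:59235333-59235392 of mm9) encodes glucosylceramide synthase and read 10.63, 10.34 and 8.16 in the esophagus and 10.84, 10.31 and 11.41 in the stomach. The log2 difference was -1.15, with a 95% interval of -2.59 to 0.30 (limma adjusted p = 0.328), and -0.37 without the esophagus array of mouse 4 (limma adjusted p = 0.574). *Smpd1* (NM_011421, A_51_P429209, chr7:112706752-112706811 of mm9) encodes acid sphingomyelinase, which releases ceramide from sphingomyelin, and read 10.76, 11.54 and 9.18 in the esophagus and 10.78, 11.18 and 10.71 in the stomach. Both genes were well above background on all 6 arrays, and in both the tissues overlapped. The *Smpd1* difference was -0.40, with a 95% interval of -1.63 to 0.83 (limma adjusted p = 0.734), and it changed sign to 0.26 without the esophagus array of mouse 4 (limma adjusted p = 0.662). The intervals of both genes hold differences in either direction.

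**Figure D2:**
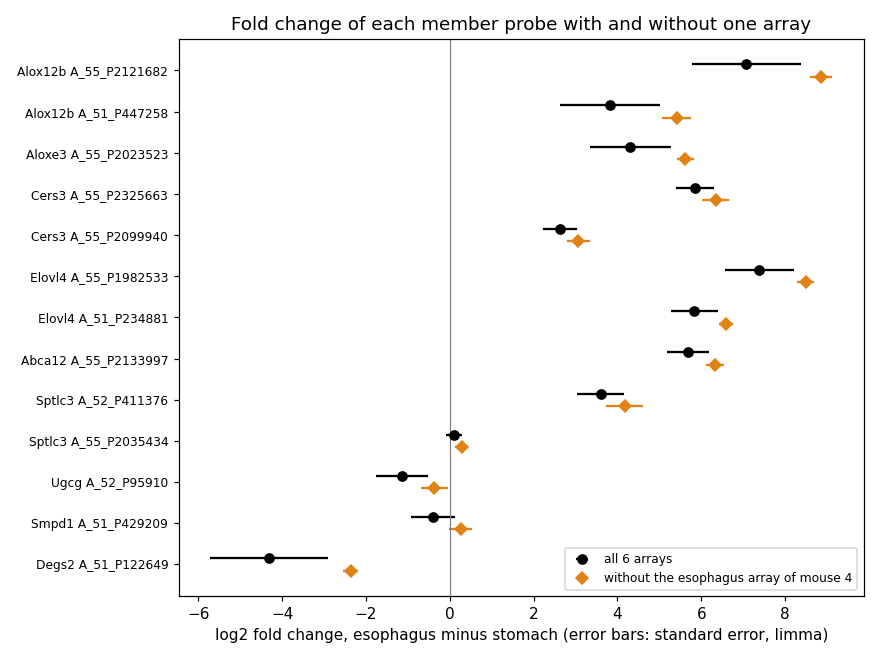
Log2 fold change of esophagus minus stomach (horizontal axis) for the 13 probes, with limma standard errors, on all 6 arrays (black circles) and without the esophagus array of mouse 4 (orange diamonds). For the brighter *Alox12b* probe the standard error falls from 1.31 to 0.27, and for *Degs2* from 1.41 to 0.18.

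Across the group, 6 of 9 genes were called higher in the esophagus (limma adjusted p under 0.05), where 7.15% of all 34298 genes were. The 9 genes were chosen with earlier results of these data known, so the shares over all genes are context and not a test. None of the 9 was called higher in the stomach, where 7.7% of all genes were, and at an unadjusted p under 0.05 and 1.5-fold 1 was, *Degs2*. At that threshold, 11% of all genes passed toward the esophagus and 10.7% toward the stomach. Without the esophagus array of mouse 4 the counts were 6 and 1, against 6.74% and 7.1% of all genes. The median log2 difference of the 9 genes was 4.31, also with dim genes at their bounds, and that of all genes was 0.03. Leaving out the esophagus array of mouse 4 gave 5.62 and 0.02. Of the 13 probes, 8 were called higher in esophageal and 0 in stomach organoids (limma), against 5.94% and 6.22% of all probes. Of the 13, 9 had all esophagus arrays above all stomach arrays and 1 had them below, against 15.2% and 13.4% of all probes with a value on every array. With 3 arrays a tissue, the smallest p that an exact two-sided permutation test of a single gene can give is 0.1.

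The drop on the esophagus array of mouse 4 was large for *Degs2*, *Alox12b*, *Aloxe3* and *Elovl4* and smaller for the rest. Only *Sptlc3* was not more than 2-fold below both other arrays, at 1.82-fold below the lower of them, and *Cers3* was 2.36-fold below the lower of them. *Ugcg* and *Smpd1*, which did not differ detectably between the tissues, were 5.01-fold and 3.93-fold below the mean of mice 1 and 2 on this array. Markers of differentiated squamous cells moved with these genes in part. Summed brightness of 13 such markers was 337100 and 442869 on the esophagus arrays of mice 1 and 2, 163384 on that of mouse 4 and 1258 to 2354 on stomach arrays. Of the 13, 8 were lower on the array of mouse 4 than on both others, and 4 more than 2-fold lower.

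Within that list the departures differed widely from gene to gene. *Cdsn*, which encodes a protein that holds cornified cells together, was 128-fold below the mean of mice 1 and 2. *Lor*, which encodes the envelope protein loricrin, was 39.8-fold below it. *Krt13* was 1.24-fold below and *Ivl* 1.34-fold above. The genes named here were chosen after their values were seen. Of 7 basal squamous markers none was more than 2-fold below both other arrays, with a summed brightness of 398965 against 356614 and 414039, and *Krt15* was 2.32-fold above the mean. Columnar markers on this array (7702) lay between those of mice 1 and 2. Their part in the lower barrier lipid values was not tested.

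**Figure D3:**
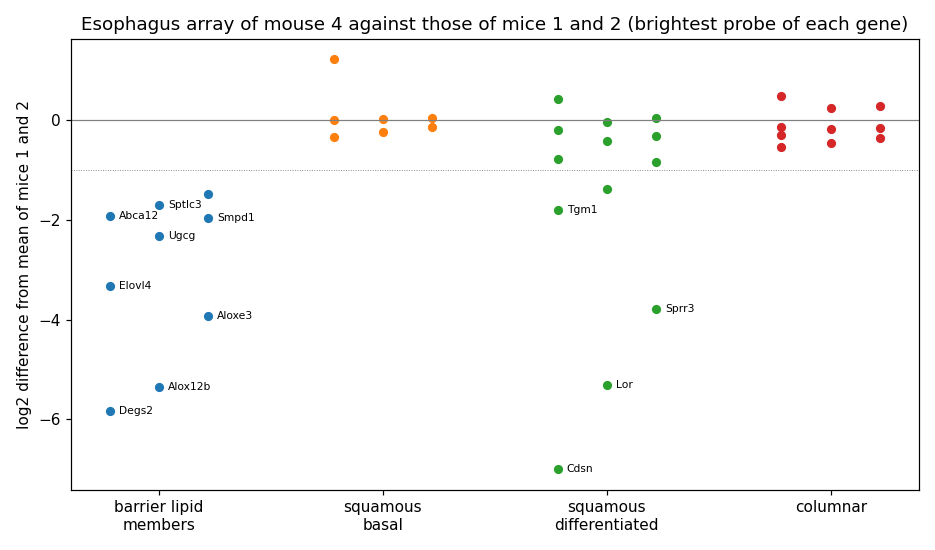
Log2 difference of the esophagus array of mouse 4 from the mean of the esophagus arrays of mice 1 and 2 (vertical axis), for the brightest probe of each barrier lipid gene and of basal squamous, differentiated squamous and columnar markers, with a dotted line at a 2-fold drop. All 9 barrier lipid genes lie below that line, *Degs2* at -5.84, while none of the 7 basal markers does.

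The rest of the pathway was read from 57 further genes, of which 56 were on the arrays, 49 of them well above background throughout at least 1 tissue. Of the 56, 8 were called higher in esophageal and 11 in stomach organoids (limma adjusted p under 0.05), and 37 did not pass, with a median log2 difference of -0.02. Over all genes the shares were 7.15% and 7.7%. The counts were 11 and 9 without the esophagus array of mouse 4. Genes that add and process the omega-hydroxyl group, listed with other barrier lipid genes, had 5 of 8 higher in the esophagus, none in the stomach and a median of 1.96, or 1.78 with dim genes at their bounds. Without the esophagus array of mouse 4, 7 of these 8 were higher. The pathway lists too were chosen with earlier results of these data known.

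*Cyp4f39*, whose product hydroxylates the far end of very long fatty acids, read 10.51, 10.90 and 9.34 in the esophagus and 4.63, 4.85 and 5.25 in the stomach. The esophagus was higher by at least 39.5-fold (limma adjusted p = 7.43e-05; 9.34e-06 without the esophagus array of mouse 4), and no stomach array was well above background. *Sult2b1*, which encodes a cholesterol sulfotransferase, read 14.30, 14.91 and 13.93 against 9.13, 9.22 and 9.93. Its log2 difference was 4.95 (standard error 0.30, limma adjusted p = 2.99e-05). *Ephx3*, which encodes an epoxide hydrolase of the lipoxygenase products, and *Abhd5*, an activator of the transacylase, were also higher in the esophagus. Their log2 differences were 4.75 and 1.5 (limma adjusted p = 0.000164 and 0.0027). *Nipal4*, not well above background on a stomach array, was at least 3.85-fold higher (limma adjusted p = 0.000924). These genes, with *Sult2b1*, also passed without the esophagus array of mouse 4 (limma adjusted p = 2.18e-05, 0.0011, 0.000147 and 5.35e-05). *Slc27a4*, a fatty acid transport protein, showed a log2 difference of -0.01 (limma adjusted p = 0.981). *Pnpla1*, the transacylase, and *Sdr9c7*, a dehydrogenase, did not pass (limma adjusted p = 0.192 and 0.104) and did so without the esophagus array of mouse 4 (limma adjusted p = 0.0387 and 0.0132).

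Of 12 elongation genes, 1 was higher in esophageal and 3 in stomach organoids, and of 14 ceramide synthesis genes on the arrays, none was higher in the esophagus and 3 were in the stomach. The stomach counts were 3 and 3 without the esophagus array of mouse 4, though in ceramide synthesis *Cers6* lost its call (limma adjusted p = 0.0829), as it did with each other array left out (limma adjusted p up to 0.124), and *Sptssb* gained one (limma adjusted p = 0.0205), and the 1 elongation gene higher in the esophagus, *Hacd2*, lost its call (limma adjusted p = 0.0545). *Hacd4* and *Hacd1*, which encode dehydratases of the elongation cycle, were higher in the stomach, with log2 differences of -4.32 and -2.27 (limma adjusted p = 4.16e-05 and 0.00266), and -4.50 and -2.18 without the esophagus array of mouse 4. For *Hacd4*, 1 of 3 esophagus arrays was well above background. *Fa2h*, which encodes the fatty acid alpha-hydroxylase, read 6.31, 5.25 and 5.36 in the esophagus and 10.98, 10.54 and 10.74 in the stomach. It was well above background on 1 esophagus array. Its log2 difference was -5.11 (standard error 0.29, limma adjusted p = 1.98e-05), and -4.97 without the esophagus array of mouse 4. *Cers4*, a ceramide synthase gene for shorter chains than those of *Cers3*, had a log2 difference of -2.51 (limma adjusted p = 0.0152), and lost its call without stomach replicate 1 or 2 (limma adjusted p = 0.0557 and 0.0753). Without esophagus replicate 2, its high esophagus array, the difference was -3.14 (limma adjusted p = 0.000523).

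Of the 4 other lipoxygenase genes, 1 passed. *Alox15* read 12.35, 7.18 and 8.34 in the esophagus and 4.71, 4.60 and 5.10 in the stomach, with mouse 1 far above the other esophagus arrays. The esophagus was higher by at least 20.6-fold (limma adjusted p = 0.0419), and fell short without esophagus replicate 4 (limma adjusted p = 0.0526) or without stomach replicate 1, 2 or 4 (limma adjusted p = 0.141, 0.146 and 0.0753). Its limit was at least 7.14-fold without esophagus replicate 1, the high array, and at least 42.7-fold without esophagus replicate 2. *Alox12* read 9.37, 7.27 and 5.75 against 6.22, 5.81 and 6.09 and did not pass on all 6 arrays (limma adjusted p = 0.329). Without the esophagus array of mouse 4 it passed (limma adjusted p = 0.0402). Among 18 turnover genes, 1 was higher in esophageal and 5 in stomach organoids, and 3 and 3 without the esophagus array of mouse 4. *Gltp*, which encodes a glycolipid transfer protein, had a log2 difference of 2.89 (limma adjusted p = 0.00209), and 3.14 without the esophagus array of mouse 4. Of the other stomach calls, *Sgms2* here passed in 1 of 6 fits that leave out an array, and the elongase gene *Elovl5* in 3 of 6 (limma). *Smpd3*, which encodes neutral sphingomyelinase, read 6.65, 10.32 and 5.33 in the esophagus and 11.37, 11.37 and 12.35 in the stomach. Its log2 difference was -4.26 (limma adjusted p = 0.0456), and it passed in only 1 of the 6 fits that leave out an array, without esophagus replicate 2, where it was -5.70 (limma adjusted p = 0.000549). It was -3.21 without esophagus replicate 4, and with the mouse as a block it did not pass (limma adjusted p = 0.0561). In the other 5 fits its limma adjusted p was 0.108 and 0.084 without esophagus replicates 1 and 4 and 0.13, 0.13 and 0.107 without stomach replicates 1, 2 and 4.

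Some pathway genes shared the low reading on the esophagus array of mouse 4. Of 49 pathway genes well above background on the arrays of mice 1 and 2, 7 were more than 2-fold lower on it than on both, against 3.79% of all genes. Of the genes of omega-acylation and related steps 3 of 8 were among them, *Cyp4f39*, *Sdr9c7* and *Ephx3*, which were named after their values were seen. None of the 9 elongation genes and none of the 13 ceramide synthesis genes measured there was among them.

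**Figure D4:**
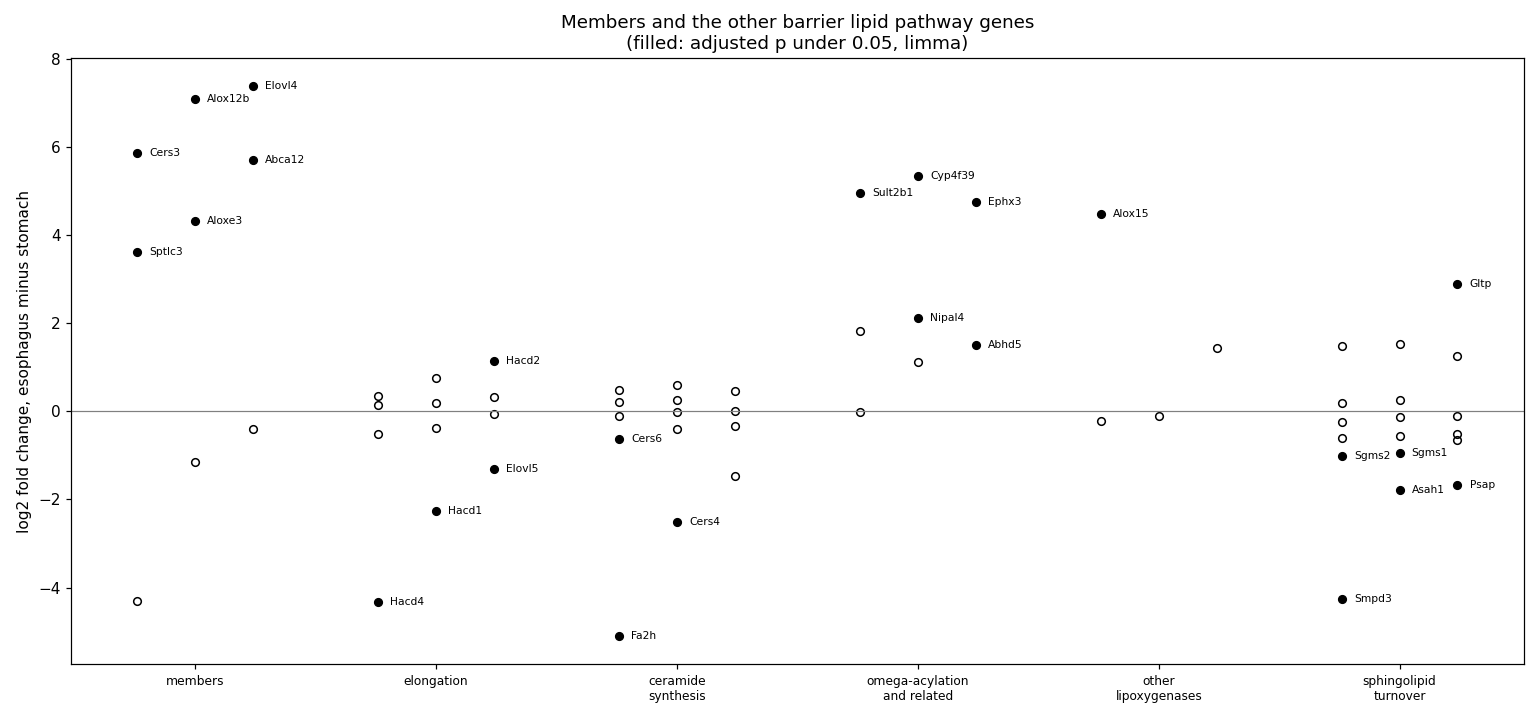
Log2 fold change of esophagus minus stomach (vertical axis) on all 6 arrays for the 9 members and the 56 other pathway genes by role, with genes at adjusted p under 0.05 (limma) filled and named. Among the members, *Degs2* lies at -4.31 (open), and the points of *Alox12b*, *Elovl4*, *Abca12* and *Sptlc3* are fitted values of probes not well above background in the stomach, while omega-acylation and related steps are the role with filled points on the esophagus side alone, apart from other lipoxygenases.

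For each of the 9 genes, the nearest profile over the 6 arrays was sought among 13477 other named genes, by the root mean square difference of log2 values centered on each gene's mean. Nearest to *Alox12b* was *Sprr2k*, a small proline-rich envelope gene, at 0.25 log2 units. *Dsg1b*, a desmosomal cadherin gene, was nearest to *Aloxe3* (0.20), *Klk10*, a kallikrein gene, to *Elovl4* (0.28), and *Tmprss11d*, a membrane serine protease gene, to *Cers3* (0.28). The nearest to *Abca12* was *Duox1*, a dual oxidase gene (0.23), and to *Sptlc3* it was *3300005D01Rik* (0.33). *Rasgrp1* was nearest to *Ugcg* (0.22) and *Tsc22d1* to *Smpd1* (0.10). *Degs2* had the least close match, *Tmem45b* at 0.62, which read 10.92, 10.18 and 5.90 in the esophagus and 14.24, 14.26 and 14.12 in the stomach. These distances rest on the difference between tissues and on the array of mouse 4, and are a description.

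The RefSeq promoter table (assembly GRCm38.p6, from 250 bases before to 50 after the start) held 8 of the 9 genes, all but *Aloxe3*. Of the motifs searched on both strands, TGANTCA (AP-1), the core of p53 family sites and the direct repeat of PPAR with RXR were in none of the 8. They were in 7.81%, 0.712% and 0.0396% of all 32851 promoters of that length. GGGNGTGG (Krüppel-like factors) was in 1 of the 8, *Alox12b*, and in 17.6% of all. The 250 bases before the *Alox12b* start, at chr11:69156822-69157071 on the plus strand of GRCm38.p6, are printed for that match. It is on the minus strand, and capitals mark the plus-strand bases opposite it, from 178 bases before the start.
Alox12b promoter: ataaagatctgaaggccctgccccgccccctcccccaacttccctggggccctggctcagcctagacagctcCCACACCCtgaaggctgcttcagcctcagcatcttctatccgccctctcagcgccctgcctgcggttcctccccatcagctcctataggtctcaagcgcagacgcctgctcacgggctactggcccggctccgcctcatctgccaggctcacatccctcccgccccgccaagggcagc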

How the data were processed

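RNA of organoids was hybridized to 6 single-color Agilent mouse arrays, and Feature Extraction 11.5.1.1 gave the deposited scanner files, which hold the intensity of each of 62976 spots, 59305 of them non-control, and per the file headers probe positions are on mm9. For the deposited log2 table, the authors corrected background and applied quantile normalization, giving array medians of 5.24 to 5.25. Its background method is not given in the sources used here, but normexp (offset 15) on median intensities with quantile normalization gave the same values within 0.0726, with a median absolute difference of 0.00433, and the 2029 missing cells were outlier-marked spots. Rows were matched to probes by feature number.

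Log2 values were averaged over the spots of a probe and compared with limma 3.58.1 (lmFit and eBayes, R 4.3.3) over all 6 arrays without a block, esophagus minus stomach. The fit was tested on simulated data. The labels give the same mouse numbers in both tissues, and no source used here says more on shared animals. Across probes, the esophagus and stomach deviations from the group means correlated with r = 0.02, 0.01 and -0.01 for mice 1, 2 and 4. Alternatives were a mouse block, a slide block, other background corrections and scalings, other filters and thresholds, and each array left out. Of 57 pathway genes, old symbols were matched through RefSeq synonyms, and 56 were found. Of 34298 gene names, 22788 match RefSeq.

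The genes named from the pathway list are, by rule, the 2 with the largest change in each role among called genes well above background in a tissue. *Hacd2*, *Elovl5*, *Cers6*, *Sgms2*, *Sptssb*, *Ephx3*, *Nipal4*, *Abhd5*, *Slc27a4*, *Pnpla1*, *Sdr9c7* and *Alox12* were added after their values were seen. The members and lists were chosen with earlier results of these data known. Precision is limited by having 3 arrays a tissue and, for dim genes, by signal over background.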

Additional observations from a re-analysis of the deposited data

How the results depend on the processing

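The count of 6 genes higher in the esophagus ran from 4 to 6 over all alternatives. *Cers3*, *Elovl4*, *Abca12* and *Sptlc3* passed in 16 of 16 alternatives, *Alox12b* in 13 and *Aloxe3* in 9. The slide block, leaving out esophagus replicate 4 and leaving out mouse 4 all set aside the same esophagus array, so these counts overlap. Of the fits that leave out 1 array, *Aloxe3* passed in 1, without esophagus replicate 4. *Alox12b* and *Aloxe3* fell short with an offset of 50 (limma adjusted p = 0.0571 and 0.0847) and with trended, robust variances (limma adjusted p = 0.0837 and 0.1). The cause was not tested. At that offset *Aloxe3* was at 3.58, and with processed signals scaled to the 75th percentile it was at 5.77 (limma adjusted p = 0.00794). *Alox12b*, *Elovl4*, *Abca12* and *Sptlc3* had no stomach array well above background, so their fitted log2 differences are not measured sizes. They were 6.12, 6.15, 4.42 and 2.41 at that offset, below the limits given in the report, and 9.53, 10.52, 8.70 and 6.26 with the 75th percentile scaling, so those limits hold for the deposited values alone. With the probes of a gene averaged, *Alox12b*, *Cers3*, *Elovl4* and *Sptlc3* were at 5.45, 4.23, 6.61 and 1.85. With the mouse as a replicate block, 6 of the 9 genes were called for the esophagus and 0 for the stomach, and 8 and 8 of the pathway genes, so the block changed no call among the 9 genes, and *Cers6*, *Sgms2* and *Smpd3* lost theirs (limma adjusted p = 0.0667, 0.0571 and 0.0561). The count higher in the stomach was 1 (*Degs2*) with the slide as a block, with mouse 4 left out (both arrays), and at unadjusted p under 0.05 with 1.5-fold, and 0 to 1 with 1 array left out. The slide block equals leaving out the esophagus array of mouse 4, the only array of its slide. *Smpd1* changed sign, to 0.26 with the slide as a block and without esophagus replicate 4 and to 0.17 with mouse 4 left out. Of the pathway genes, 13 were higher in the esophagus at unadjusted p under 0.05 with 1.5-fold and 12 in the stomach, against 11% and 10.7% of all genes, and 7 were higher in the stomach with processed signals scaled to the 75th percentile. That scaling moved the median of all probes to 0.19 from 0.02. With 1 array left out, *Smpd1* ran from -0.92 to 0.26. In those fits, 6 to 11 pathway genes were higher in esophageal and 6 to 10 in stomach organoids.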
